A study of Drosophila melanogaster with 14 samples.

Results

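The Hippo pathway restrains tissue growth. In its core cassette the kinase Hippo (Hpo), with the scaffold Salvador (Sav), activates the kinase Warts (Wts), whose cofactor is Mats. Warts phosphorylates the coactivator Yorkie (Yki) and so keeps it out of the nucleus. Unphosphorylated Yki enters the nucleus and drives growth genes together with the DNA-binding protein Scalloped (Sd). Expanded (Ex) and Kibra act at the apical cortex upstream of the kinases, and the atypical cadherins Fat (Ft) and Dachsous (Ds) act at the cell surface. In the fly midgut the pathway is known to limit the division of intestinal stem cells (ISCs). Here the 10 genes yki, sd, hpo, wts, sav, mats, ex, kibra, ft and ds were taken by name, of 17802 Release 6 genes that held at least 1 GATC fragment.

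Targeted DamID was done on dissected adult midguts of Drosophila melanogaster in 14 samples. A fusion of Dam methylase with Pol II, or Dam alone, was expressed under the esg driver, which is active in ISCs and enteroblasts (ISC/EBs), or under the myo (Myo1A) driver, which is active in enterocytes (ECs), with 2 samples of each protein per driver. For Sox21a, a TF, 3 samples of the Dam fusion and 3 of Dam alone came from ISC/EBs. The esg driver does not separate ISCs from EBs, and stock genotypes, fly age and library depth were not determined here. The values are 3 tracks, 1 per experiment, each averaged by the authors and giving log2 of fusion over Dam alone for 383654 GATC fragments. No value per sample was used, so no difference below has a replicate check, a standard error or a p-value. Neighboring fragments are not replicates. Dam methylates GATC sites near the fused protein, so a fragment between neighboring GATC sites is the unit of measurement, and the value reads where Pol II was, not how much RNA was made.

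The tracks were read with markers before the Hippo genes were compared. All 5 ISC/EB markers (esg, Dl, N, mira and sc) had Pol II between 1.24 and 3.63 (log2 over Dam) in ISC/EBs and between -0.26 and -0.10 in ECs. Of 6 EC markers, 5 had at least 1 in ECs, and nub, which encodes the TF Pdm1, had 0.63. Myo31DF, the gene after which the EC driver is named, had 1.47 in ISC/EBs and 1.30 in ECs. No marker of enteroendocrine cells or of visceral muscle reached 1 in either track. Their highest values were 0.58 for the enteroendocrine marker Dh31 in ECs and 0.59 for the muscle marker Mef2 in ISC/EBs. Of 5 hemocyte markers only srp reached 1, at 1.01 in ISC/EBs, and it had 0.80 in ECs. The ISC/EB track had the wider spread (SD over fragments 0.86 against 0.65 in ECs), so differences between the populations are also given on rescaled tracks.

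Pol II occupancy of a gene was taken as its mean log2 ratio per base, each fragment counting by its overlap, so that genes of different length can be compared per base. A gene was called occupied at a mean of at least 1, a doubling over Dam alone. In ISC/EBs 5 of the 10 Hippo genes were called, namely kibra (2.17), mats (1.68), ex (1.21), sd (1.11) and yki (1.10), and 29.4% of all genes were. In ECs mats (1.35) and sav (1.14) were called, beside 18.9% of all genes. mats, the cofactor of Warts, was the single member called in both populations, as were 15.1% of all genes. ft and ds were below 0 in both tracks. The median of the 10 genes was 1.03 in ISC/EBs and 0.37 in ECs, compared with 0.30 and 0.01 over all genes.

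**Figure D1:**
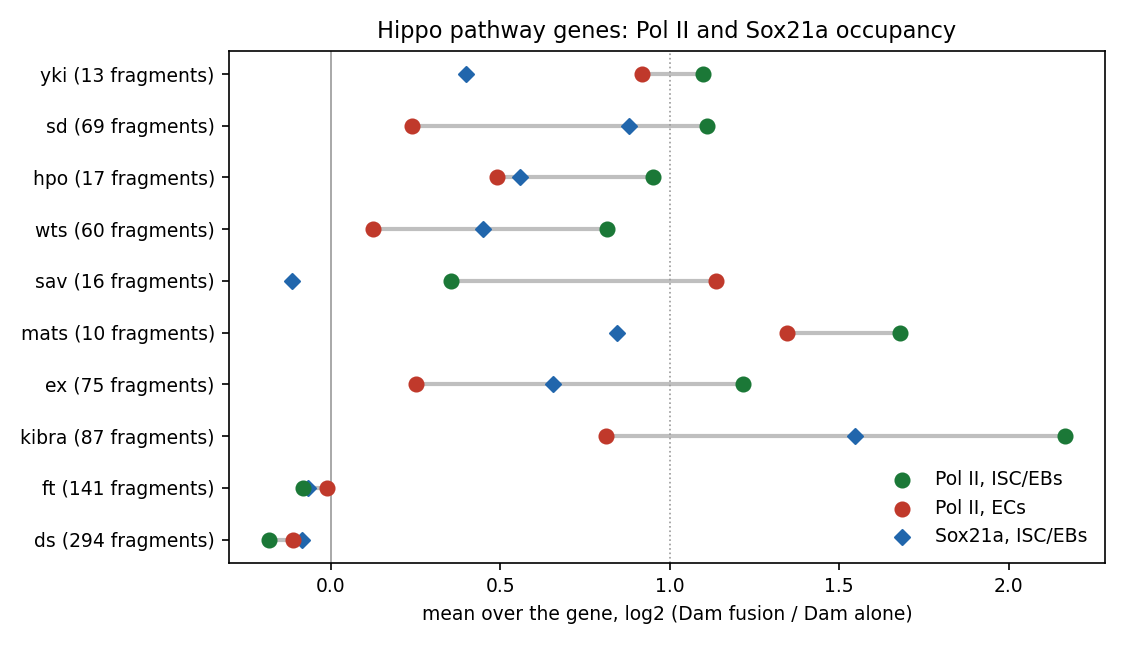
Mean log2 ratio over each gene (x axis, log2 of Dam fusion over Dam alone) for Pol II in ISC/EBs (green), Pol II in ECs (red) and Sox21a in ISC/EBs (blue diamonds), 1 averaged track each and no error bars because no value per sample was used. The dotted line marks the call at 1. kibra has the highest ISC/EB value (2.17), sav is the one member with clearly more Pol II in ECs (0.36 and 1.14), and ft and ds lie near 0.

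On the deposited scale the populations differed most at kibra. The difference, ISC/EB minus EC, was 1.35 for kibra, 0.96 for ex, 0.87 for sd, 0.69 for wts, 0.46 for hpo, 0.34 for mats and 0.18 for yki. It was -0.07 for both ft and ds and -0.78 for sav. kibra was the only member with a difference of at least 1, as 9.89% of all genes had, and none was at -1 or lower, as 2.66% of all genes were. On the deposited scale 7 members and 65.3% of all genes had more Pol II in ISC/EBs, while 5 members did after quantile normalization (48.8% of all genes) or SD scaling (61.9%). These counts of members are near the shares of all genes. The median difference was 0.40 for the members and 0.15 over all genes.

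Counts at other limits and gene sizes were read against the same background. At a limit of 0.5, 7 members were called in ISC/EBs (43.5% of all genes), 4 in ECs (30.6%), 4 by a higher ISC/EB value (29.2%) and sav alone by a higher EC value (5.38%). At 1.5, kibra and mats were called in ISC/EBs (18.3% of all genes), and no member was called in ECs (9.89%) or by a difference in either direction (3.18% and 1.29%). Long genes were called less often than short ones.
Of the 6 members with at least 60 fragments 3 were called in ISC/EBs, compared with 16.9% of genes of that size, and none in ECs, compared with 4.42%. kibra was called by a higher ISC/EB value (6.53%) and none by a higher EC value (0.48%). Of the 4 members with 10 to 17 fragments 2 were called in ISC/EBs (30.8% of such genes), 2 in ECs (20.7%) and none by a difference (7.11% and 3.47%). Leaving out genes with fewer than 5 fragments gave shares of 30.2%, 19.6%, 8.12% and 2.97% for the calls at 1.

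These differences depend on the scale of the tracks. Quantile normalization, which gives both Pol II tracks the same distribution of values, shifted the median difference of all genes by -0.15, to -0.01. The median of the members was then 0.0082 (0.01 above that of all genes, compared with 0.25 above it on the deposited scale). On that scale kibra had a difference of 0.84, ex 0.66, sd 0.48, wts 0.44 and hpo 0.10, whereas yki (-0.35) and mats (-0.27) turned to the EC side and sav reached -1.17. Scaling both Pol II tracks to their mean SD (SD scaling) turned yki (-0.10) and mats (-0.08) as well, and gave 0.97 for kibra and -1.0 for sav. With either rescaling the member with the largest difference was therefore sav, on the EC side, and kibra came next. Calls at 1 were read against the rescaled background as well. After quantile normalization 3 members were called in ISC/EBs (23.6% of all genes), 4 in ECs (24.4%), none by a higher ISC/EB value (3.61%) and sav by a higher EC value (4.84%). After SD scaling 3 members were called in each population (26.1% and 21.8%), none by a higher ISC/EB value (5.09%) and sav by a higher EC value (4.1%). The direction of kibra, ex, sd, wts, hpo, sav, ft and ds was the same on the deposited, quantile normalized and SD-scaled tracks. Those of yki and mats were not. For ft and ds the direction rests on differences between -0.03 and -0.10. Subtracting the median of each Pol II track (median centring) shifted the median difference of all genes by only -0.0022, so it could change little.

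**Figure D2:**
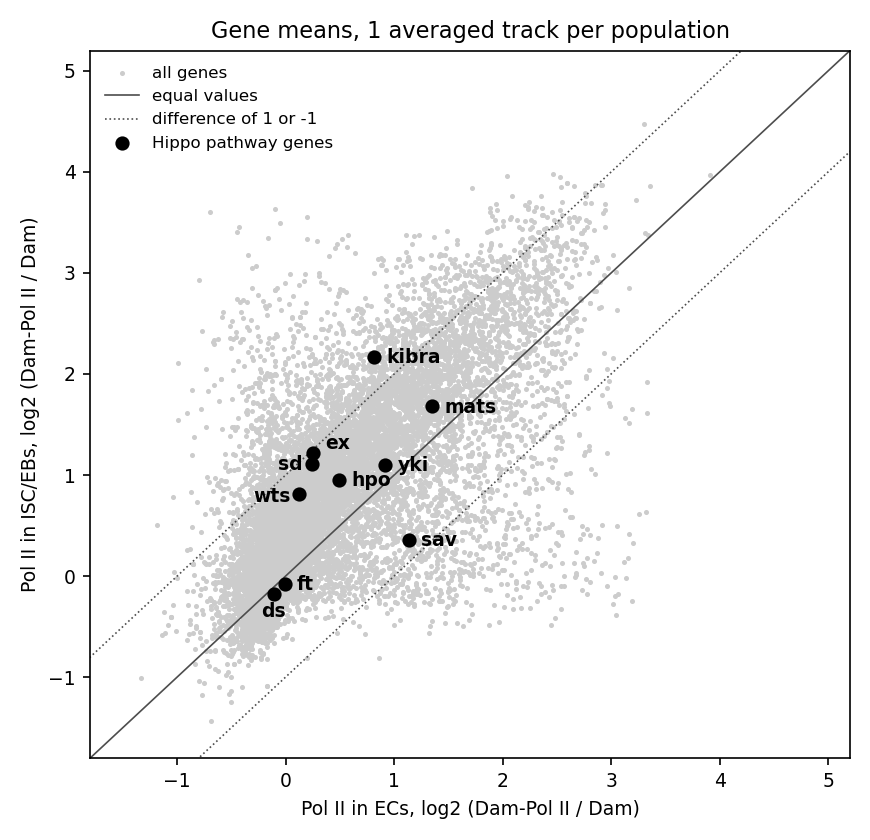
Gene means of Pol II in ECs (x axis) and ISC/EBs (y axis), both log2 over Dam, for all 17802 genes (gray) and the 10 Hippo pathway genes (black, named), from 1 averaged track per population. kibra lies above the dotted line of a difference of 1, ex, sd and wts lie below that line on the ISC/EB side, and sav lies on the EC side.

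kibra encodes a WW-domain scaffold that promotes phosphorylation of Warts, and is itself a target gene of Yki. The gene spans chromosome 3R from 14697689 to 14724261 (Release 6 here and below) and has 87 fragments. In ISC/EBs the fragments ran from -0.01 through a median of 1.85 to 4.18, and 60 of them (69.0%) were at 1 or more. In ECs they ran from -0.78 through 0.26 to 3.19, and 29 (33.3%) were at 1 or more. Over all fragments of the genome these shares were 15.2% and 10.05%. Of the 87 fragments, 78 were higher in ISC/EBs. Its highest ISC/EB fragment (4.18, with 2.51 in ECs) lay 24.99 kb from the end with the lower coordinate.
The EC signal of kibra was uneven along the gene. Divided into 4 parts of equal length from the lower coordinate, kibra had ISC/EB values of 1.08, 2.66, 2.14 and 2.75 and EC values of 0.28, 1.84, 0.24 and 0.85. The second part was therefore well occupied in both populations, and the third had a difference of 1.89. In the third part the fragment from 14714126 to 14714501 had 3.70 in ISC/EBs and 1.10 in ECs.
Both peaks of Sox21a on kibra fell on occupied stretches, but occupancy in ISC/EBs was not confined to them. Peaks are those the authors called, with their log2 score and false discovery rate (FDR). The first (14703117 to 14711851, score 2.52, FDR = 6.64e-16) lay wholly inside the gene, and the second (14720095 to 14724491, score 2.63, FDR = 9.11e-15) reached past its upper end. Together their fragments made up 48.5% of the gene, and Sox21a averaged 1.55 over the whole gene, the highest of the 10 and the only one at 1 or more (14.1% of all genes). Pol II in ISC/EBs was 2.76 inside the peaks and 1.60 outside, and in ECs 1.52 inside and 0.14 outside. The neighboring gene CG7530, 499 bp away, had 2.38 in ISC/EBs and 0.07 in ECs. Meltrin, 397 bp away on the other side, had 1.40 in the former and 0.37 in the latter.

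ex encodes a FERM-domain protein that binds Yki and recruits the kinase cassette, and is, like kibra, a target gene of Yki. Its locus is chromosome 2L from 431227 to 448701, with 75 fragments. They ran from -0.28 through a median of 0.63 to 3.72 in ISC/EBs and from -0.75 through -0.01 to 2.21 in ECs. Every one of the 75 was higher in ISC/EBs on the deposited scale, the smallest difference being 0.03.
Occupancy of ex was highest at the end with the lower coordinate. In 4 equal parts the ISC/EB values were 2.37, 1.60, 0.26 and 0.75 and the EC values 0.89, 0.34, -0.20 and 0.03. Sox21a had peaks there from 431388 to 433012 (score 2.44, FDR = 1.88e-04) and from 434692 to 437337 (score 2.23, FDR = 9.35e-14). Inside these peaks Pol II was 2.74 in ISC/EBs and 1.21 in ECs, and outside them 0.72 and -0.06. The upper end of ex overlaps crq, which encodes a scavenger receptor, by 448 bp, and crq had 2.58 and 1.25. Without the fragments that ex shares with other genes it had 1.25 in ISC/EBs and 0.32 in ECs.

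sd encodes the TEAD-family TF through which Yki binds DNA. It lies on chromosome X from 15804370 to 15827682, with 69 fragments. They ran from -0.09 through a median of 0.62 to 3.45 in ISC/EBs, with 25 at 1 or more, and from -0.62 through 0.13 to 1.44 in ECs, with 4 at 1 or more. The populations differed in the 2 parts of the gene with the lower coordinates, at 1.68 and 0.14 and at 1.80 and 0.43, and far less in the other two, at 0.66 and 0.13 and at 0.32 and 0.26.
The fragment from 15807778 to 15808462 had 2.93 in ISC/EBs and -0.48 in ECs, the largest difference of any fragment of the 10 genes (3.41), and it also had the highest Sox21a value in sd (2.91). It lies in the Sox21a peak from 15807128 to 15809122 (score 2.64, FDR = 0.00599), which also holds lncRNA:CR44384. The second peak, from 15811538 to 15814967, had a score of 1.60 (FDR = 5.48e-06). Pol II inside both peaks was 2.17 in ISC/EBs and 0.24 in ECs, whereas the EC values inside peaks were 1.52 in kibra and 1.21 in ex. The 2 peaks of sd differed in ECs, with -0.38 in the peak that holds lncRNA:CR44384 and 0.60 in the second. CG8509 lies within sd and shares 9 fragments with it. Without fragments on other genes sd had 1.02 in ISC/EBs against 0.35 in ECs, and with the unweighted mean over fragments its ISC/EB value was 0.99, just under the call.

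yki encodes the coactivator on which the pathway converges. This short gene on chromosome 2R runs from 24065975 to 24068485 and has 13 fragments. They ran from -0.01 through a median of 0.88 to 3.03 in ISC/EBs and from 0.13 through 0.92 to 2.23 in ECs, and 6 of 13 were higher in ISC/EBs. Which population had more Pol II thus changed along the gene. The highest fragment in all 3 tracks, from 24068203 to 24069202, reaches out of yki onto the neighboring gene Gpat4 (0.94 in ISC/EBs and 1.64 in ECs). Without it yki had 0.85 and 0.75 and was not called in ISC/EBs. No Sox21a peak overlapped yki. The nearest, from 24062976 to 24065237 (score 1.75, FDR = 2.82e-04), lay 738 bp away on Rap2l, a gene with 2.70 in ISC/EBs and 1.69 in ECs.

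**Figure D3:**
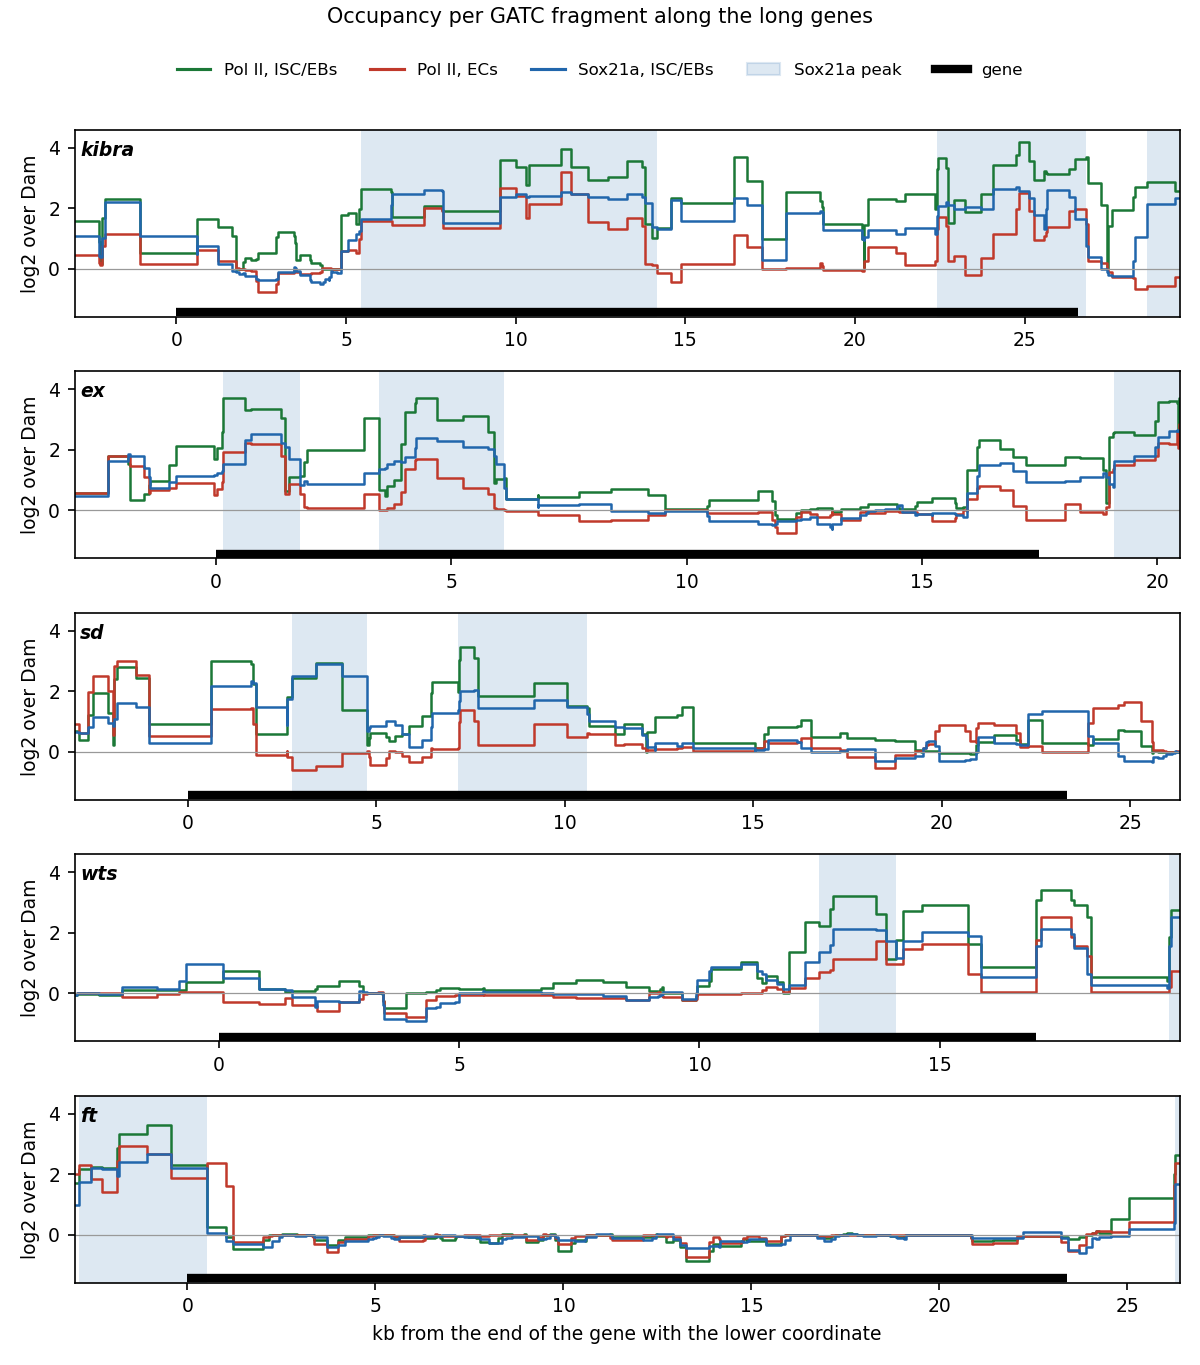
Log2 ratio over Dam per GATC fragment (y axis) against the distance in kb from the end of the gene with the lower coordinate (x axis) for kibra, ex, sd, wts and ft, with flanks. Green is Pol II in ISC/EBs, red Pol II in ECs, blue Sox21a, shading a Sox21a peak and the black bar the gene; the direction of transcription is not shown. In kibra, ex, sd and wts the green line stands above the red one over the peaks, and ft is near 0 beyond its first fragments.

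wts, which encodes the kinase that phosphorylates Yki, lies on chromosome 3R from 30789625 to 30806619 and has 60 fragments. They ran from -0.49 through a median of 0.18 to 3.21 in ISC/EBs and from -0.78 through -0.04 to 1.72 in ECs. The signal of both tracks lay at the end with the higher coordinate. The part of wts nearest to it had 2.19 in ISC/EBs and 0.97 in ECs, while the other 3 parts were between 0.18 and 0.67 in ISC/EBs and between -0.39 and 0.04 in ECs. The gene mean (0.82 and 0.13) therefore averages an occupied end and a long stretch near 0, and the median over fragments gave a difference of 0.22 in place of 0.69.
Sox21a had 1 peak on wts, from 30802120 to 30803720 (score 1.94, FDR = 0.00351), with Pol II at 2.71 in ISC/EBs and 1.13 in ECs. The highest ISC/EB fragment of wts (3.21, with 1.14 in ECs) and its highest Sox21a fragment (2.13) were the same, from 30802404 to 30803290. Within 5 kb of the upper end lay a longer peak, from 30809398 to 30816955, on cindr. The nearest gene at this end, dj-1beta, had 2.46 and 1.44.

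hpo encodes the upstream kinase of the cassette. It lies on chromosome 2R from 19493996 to 19496856 and has 17 fragments. They ran from -0.08 through a median of 0.43 to 3.39 in ISC/EBs and from -0.11 through 0.18 to 2.58 in ECs, with the highest value of both tracks in the fragment from 19496586 to 19496838. The part of hpo at this end had 2.22 in ISC/EBs against 1.65 in ECs, and the other 3 parts were at 0.90 or lower and at 0.20 or lower. The mean of hpo in ISC/EBs (0.95) was just under the call and passed it at 1.02 without the fragment shared with Rep. The deposited list holds no Sox21a peak on hpo or within 5 kb of it, although its 2 highest Sox21a fragments stood at 2.77 and 2.80.

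sav encodes the scaffold that joins Hippo to Warts and was the one member with a difference below -0.5. It lies on chromosome 3R from 23058609 to 23061304 and has 16 fragments. They ran from -0.26 through a median of 0.29 to 3.14 in ISC/EBs and from 0 through 1.29 to 2.40 in ECs, and 11 of 16 were lower in ISC/EBs. In 4 equal parts from the lower coordinate the EC values were 1.54, 1.40, 1.13 and 0.57 and the ISC/EB values -0.17, 0.00, 0.72 and 0.75.
The EC excess thus lay at the end next to Ctns, a lysosomal cystine transporter gene that overlaps sav by 350 bp, and Ctns itself had 0.55 in ISC/EBs and 1.92 in ECs. Without fragments shared with other genes sav had 0.44 in ISC/EBs and 0.99 in ECs, just under the call. The unweighted mean over fragments gave a difference of -0.40, and without shared fragments it was -0.55. Signal from Ctns and from sav cannot be told apart by DamID, which does not read strands. At its other end sav had 3.14 in ISC/EBs and 2.40 in ECs in the fragment from 23061260 to 23061860, which it shares with Ublcp1. A Sox21a peak (23061212 to 23062174, score 1.76, FDR = 0.00351) overlapped sav there by only 93 bp, and Sox21a averaged -0.11 over the gene (0.16 as the unweighted mean over fragments).

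mats encodes the Mob-family cofactor that activates Warts. mats spans chromosome 3R from 22421161 to 22423302 and has 10 fragments, the fewest of the 10 genes. They ran from 0.15 through a median of 1.92 to 2.84 in ISC/EBs and from 0.28 through 1.32 to 2.70 in ECs. Pol II was at 1 or more in 6 fragments in ISC/EBs and in 7 in ECs, and no fragment was below 0 in any track. The values of the populations overlapped, and the difference (0.34) changed sign with the scale of the tracks, as given above. It was 0.11 without the fragments shared with other genes and 0.60 as the difference of the medians over fragments. The end fragment, from 22423168 to 22423724, had 2.84 in ISC/EBs, 2.70 in ECs and 2.06 for Sox21a, and it is shared with pinta, 14 bp away. A Sox21a peak (22423168 to 22424607, score 2.07, FDR = 6.05e-07) lay mostly on pinta and overlapped mats by 135 bp. Nop56, 93 bp away on the other side, had 1.77 in ISC/EBs and 1.02 in ECs.

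**Figure D4:**
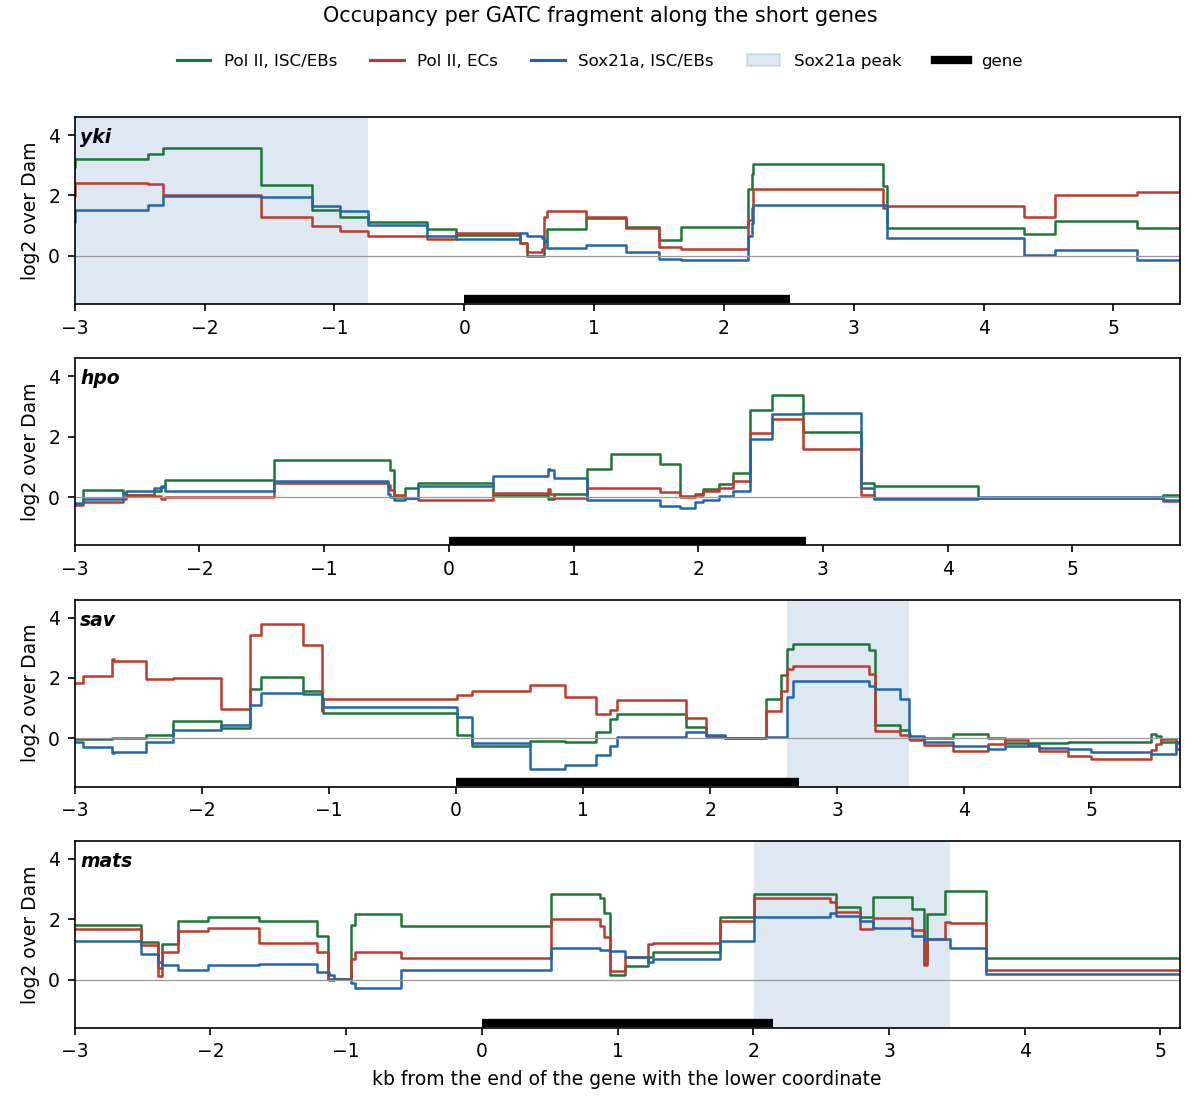
Log2 ratio over Dam per GATC fragment (y axis) against the distance in kb from the end of the gene with the lower coordinate (x axis) for yki, hpo, sav and mats, with flanks; colors, shading and bars stand for the same tracks, Sox21a peaks and genes as in the plot of the long genes. In sav the red EC line stands above the green ISC/EB line at the lower end, and within yki, hpo and mats the highest fragment of both Pol II lines is at the upper end, while in the flank below yki both lines stand higher still.

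ft and ds encode giant cadherins that bind each other between neighboring cells. ft lies on chromosome 2L from 4198404 to 4221796 with 141 fragments, and ds on the same arm from 640013 to 714983 with 294 fragments, the most of the 10 genes. Gene means of ft were -0.08 in ISC/EBs and -0.01 in ECs, and those of ds were -0.18 and -0.11. The median fragment was at -0.04 and -0.02 in ft and at -0.06 and -0.03 in ds. Of all genes, 31.8% were below 0 in ISC/EBs and 46.2% in ECs. Pol II was above 0 over 9.76% of the length of ft in ISC/EBs and 5.66% in ECs, and over 15.3% and 2.24% of the length of ds. In ds, 22 adjoining fragments (6.68 kb, 47.95 to 54.63 kb from the lower end) were listed at exactly 0 in all 3 tracks, as were 9.19% of all fragments, and whether these were measured cannot be told from the values.
A few fragments of ft and ds departed from this level. At the lower end of ft, the fragment from 4198927 to 4199415 had 0.25 in ISC/EBs against 2.37 in ECs, and the next one had -0.08 and 1.62. The fragment before them (4197973 to 4198926), which ft shares with Naprt, had 2.31 and 1.89 and a Sox21a value of 2.21, and lies in the peak from 4195522 to 4198927 (score 2.35, FDR = 1.42e-05), which overlaps ft by 524 bp. Naprt itself had 0.92 and 0.89. In ds, 2 of 294 fragments reached 1 in ISC/EBs and none in ECs. They adjoin each other, with 1.40 in ISC/EBs and -0.42 in ECs from 644187 to 644498 and 1.05 and -0.39 from 644499 to 644590, and had Sox21a values of 0.72 and 0.74. No Sox21a peak lay on ds or within 5 kb of it.

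Mean Sox21a was above 0 on 7 of the 10 genes, and on 62.5% of all genes. Sox21a peaks overlapped 7 of the 10 genes by at least 1 bp (sd, wts, sav, mats, ex, kibra and ft), compared with 17.4% of all genes and 21.2% of those with at least 5 fragments. With 2000 bp added at each end, 8 members had a peak (25.4% of all genes), yki being the eighth. Longer genes hold peaks more often. Of the 6 members with at least 60 fragments 5 held a peak, as did 46.4% of all genes of that size, and of the 4 members with 10 to 17 fragments 2 did, as did 17.3% of genes in that range. sd, ex and kibra held 2 peaks each (3.30% of all genes held 2 or more). This share and the shares given next take no account of gene length. On sav and mats the overlap was under 500 bp, and an overlap of at least 500 bp left 5 members (13.9% of all genes). When only peaks at or above the median score were counted (2.21), 4 members remained, namely sd, ex, kibra and ft (9.59% of all genes).
The 10 peaks on members had a median score of 2.29, compared with 2.21 over all 2769 peaks. Pol II over them was a median of 2.63 in ISC/EBs against 1.43 in ECs, and all 10 were at 1 or more in ISC/EBs. This is a property of the whole peak list: the medians of all peaks were 2.48 and 1.27, and 97.5% were at 1 or more in ISC/EBs. Among 1429 genes with at least 5 fragments inside and outside peaks, the median gain inside peaks was 1.69 in ISC/EBs and 0.84 in ECs.
Along the fragments of a gene, Sox21a and ISC/EB Pol II had a Pearson correlation of 0.81 in sd (69 fragments), 0.88 in wts (60), 0.85 in ex (75), 0.88 in kibra (87), 0.90 in ft (141) and 0.67 in ds (294), as a description without a test. The median over 1311 genes with at least 50 fragments was 0.73. In ft, 1 of the 141 fragments was at 1 or more in both tracks (2.31 for Pol II and 2.21 for Sox21a), and it is shared with Naprt. No other ft fragment reached 1 in either track, and the correlation in ft was not computed without it. Sox21a and EC Pol II had 0.22 in sd, 0.89 in wts, 0.81 in ex, 0.75 in kibra, 0.55 in ft and 0.10 in ds, with a median of 0.45 over the same genes. The tracks were read over the same fragments, neighboring fragments are not independent, and the Sox21a and ISC/EB tracks come from the same cell population.

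The remaining pathway genes were described with 6 lists, 67 genes in all, of which 22 were called in ISC/EBs (29.4% of all genes were) and 10 in ECs (18.9%). A difference of at least 1 was found for 7 (9.89%), of at most -1 for none (2.66%), and the median difference was 0.52 (0.15 over all genes). The counts of calls are thus near the shares of all genes. By contrast, 60 of the 67 were higher in ISC/EBs (65.3% of all genes) and 31 held a Sox21a peak (17.4%). The share of genes with a peak takes no account of gene length. Counts are on the deposited scale unless stated, and those of genes higher in ISC/EBs compare with 65.3% of all genes, or 48.8% after quantile normalization.
In the Fat and Dachsous branch (7 genes) all genes had more Pol II in ISC/EBs, also after quantile normalization, but none by 1 or more. The casein kinase gene dco had 1.32 in ISC/EBs against 0.58 in ECs, and Dlish 0.70 and 0.08. The myosin gene dachs and the ubiquitin ligase gene Fbxl7 had 0.07 and -0.10 and -0.07 and -0.12. dco was the one gene of the branch called in ISC/EBs, and none was called in ECs.
Among 15 genes of apical and junction inputs to the kinases, all were higher in ISC/EBs (13 after quantile normalization, par-1 and sdt being the exceptions). The membrane scaffold gene Magi had the largest difference of all listed genes (2.13 in ISC/EBs and -0.10 in ECs). Tao, which encodes a kinase that activates Hippo, had 0.91 and -0.06, Schip1 1.14 and 0.21, and sdt 0.15 and 0.05.
Of 10 genes of other kinases and the STRIPAK phosphatase complex, 7 were higher in ISC/EBs (5 after quantile normalization), near the shares of all genes. msn, a kinase gene whose product can act on Warts beside Hippo, had 1.78 and 0.50, and Fgop2 1.32 and 0.28. mts, the catalytic subunit gene of the phosphatase PP2A, had 1.21 and 1.78, and Mob4 1.52 and 1.60. After quantile normalization the difference of mts was -1.10, and those of msn and Fgop2 were 0.81 and 0.59.

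Of 15 nuclear partners of Yki and Sd, 12 were higher in ISC/EBs (9 after quantile normalization) and 1 by at least 1. This was Tgi, which encodes a corepressor that binds Sd in competition with Yki, with 1.91 in ISC/EBs and -0.28 in ECs and 3 Sox21a peaks. The chromatin remodeler gene osa had 1.11 and 0.14. The EC side of this list was led by tsh (0.02 and 0.74), followed by Wbp2 (0.96 and 1.10).
Of 17 target genes of Yki, all were higher in ISC/EBs on the deposited scale and 15 after quantile normalization. A difference of at least 1 was found for the cyclin gene CycB (1.77 and 0.16), Socs36E, a JAK/STAT feedback gene (2.39 and 1.04), and the glypican gene dlp (1.18 and 0.17). After quantile normalization only CycB had a difference of at least 1 (1.15). The smallest difference was that of the cytokine gene upd1 (-0.09 and -0.12). Diap1, an inhibitor of apoptosis, had the highest values of the list in both populations (2.63 and 1.99), and was named after its values were seen. The other cytokine genes, upd2 (0.31 and 0.05) and upd3 (0.83 and 0.04), were likewise added afterwards. Sox21a peaks overlapped 14 of the 17, compared with 17.4% of all genes, a share that takes no account of gene length.
Of 6 apicobasal polarity genes, 5 were higher in ISC/EBs (4 after quantile normalization). baz had 0.96 and 0.21 with 4 Sox21a peaks, l(2)gl 1.49 and 0.89, and aPKC and scrib had differences of -0.03 and 0.01.

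**Figure D5:**
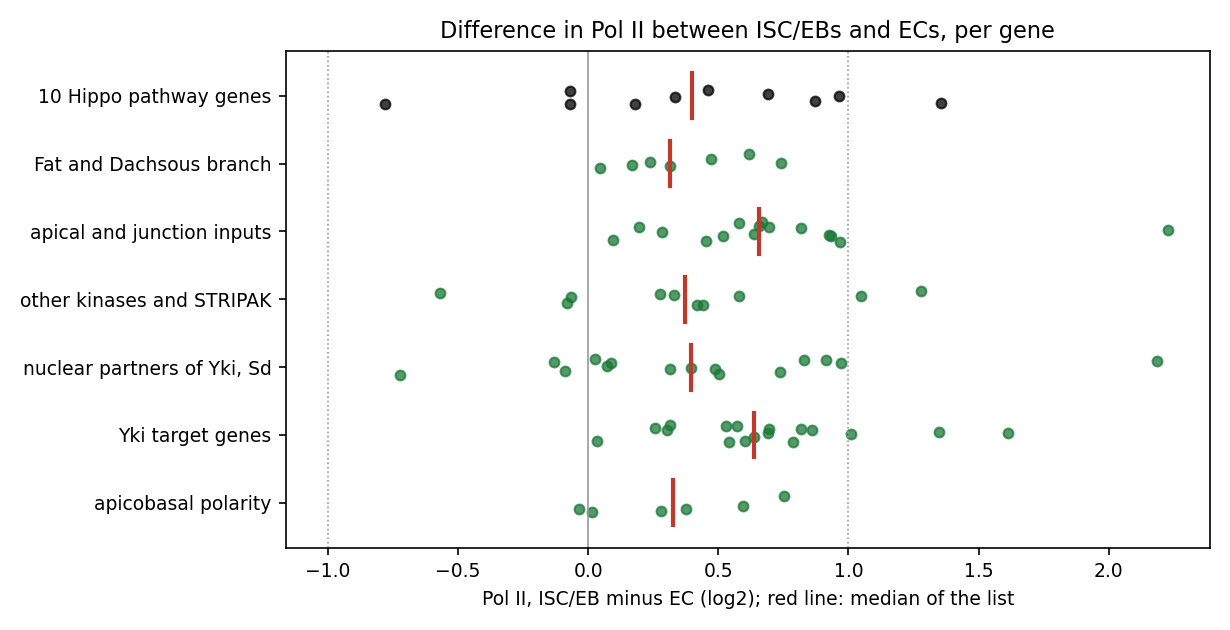
Difference in Pol II, ISC/EB minus EC (x axis, log2), for each of the 10 Hippo pathway genes (black) and the genes of 6 further lists (green; fj, Mer and crb stand in 2 lists), with a red line at the median of each list and dotted lines at -1 and 1. Points are spread vertically at random within a list. Magi, Tgi and CycB lie farthest to the ISC/EB side, and sav and tsh farthest to the EC side.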

How the data were processed

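Targeted DamID was done by the authors on midgut DNA digested with DpnI, ligated to adaptors, digested with DpnII, amplified and sequenced. The deposited values are log2 ratios of Dam fusion to Dam alone per GATC fragment, averaged by the authors over samples. The deposited peaks were called by the authors on the averaged Sox21a track at an FDR below 0.01, and each carries a score on the log2 scale and an FDR (a q-value). For the aligner, build, normalization and peak caller: not given in the sources used here. Gene positions were those of RefSeq Release 6, whose last gene on each arm ended before the last fragment.

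Fragments were assigned to genes by an overlap of at least 1 bp, and means were weighted by the overlap. Calls used a log2 threshold of 1. No test was made, because each experiment is 1 average and resampling of neighboring fragments does not stand in for samples. Depth was not determined, so no interval is given. All members were named, and in each further list every gene with a difference of 1 or more, filled up to 4 with the genes at either end. Members and lists were chosen with earlier results of these data known. Alternatives are given in the closing section. As a check of the code, known amounts were added to every fragment of 200 genes on shuffled tracks, and all 200 gene means rose by them. This checks the arithmetic of the mean only, not how well the mean reads occupancy. Software: matplotlib 3.10.9, scipy 1.17.1, numpy 2.4.6 and pandas 2.3.3 under Python 3.11.15.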

Additional observations from a re-analysis of the deposited data

How the results depend on the processing

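No value per sample was used here, so no replicate was left out. No paired analysis was possible because the values used are 1 average over samples for each experiment, and the reads of the numbered samples were not analysed here. Of 250 values of single members under other settings, 211 moved by less than 0.25 (log2) and 39 by at least that much. The 211 include 30 from median centring, which hardly changes the tracks and could not move them. Taking the median over fragments moved the most, 16 values, and left 24. Quantile normalization moved 13 values and left 17. The differences of yki and mats changed sign after quantile normalization and SD scaling, as the report gives, and that of yki also with medians over fragments (-0.03). Using only fragments wholly inside the gene, or no fragment shared with another gene, moved none of them by that much.

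The count of members called in ISC/EBs (5) was 2 with medians over fragments, 3 with quantile normalized or SD-scaled tracks and 2 at a threshold of 1.5. The count in ECs (2) was 1 without shared fragments, 4 after quantile normalization, 4 at a threshold of 0.5 and 0 at 1.5. The count of members higher in ISC/EBs (1) was 0 after quantile normalization or SD scaling, 4 at a threshold of 0.5 and 0 at 1.5. The count of members higher in ECs (0) was 1 after quantile normalization, after SD scaling and at a threshold of 0.5. The median difference of the members (0.40) was 0.0082 after quantile normalization and 0.12 after SD scaling. With peaks at or above the median score, 4 members in place of 7 held a Sox21a peak. The other settings left these counts within 1.5 times and this median within 0.25.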
